A study of Mus musculus with 20 samples.

Results

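The 10 genes described here are used in kidney research as markers of tubule injury and of failed repair, the state in which injured tubule cells do not return to their differentiated form. They are Havcr1, Lcn2, Vcam1, Sox9, Sox4, Clu, Spp1, Cd24a, Prom1 and Dcdc2a, taken as a list of names. The list was chosen with earlier results of these data known. All 10 were found once among the 47729 Ensembl genes of the count tables, and all 10 were among the 18731 genes with enough counts to be tested. Mouse kidney cells with the membrane antigen Sca-1, which several kinds of stem cell carry, were sorted with magnetic beads and sequenced in 20 libraries, and the labels call them mesenchymal stem cell-like. Roxadustat is an anemia drug that blocks the prolyl hydroxylases and so stabilises hypoxia-inducible factor (HIF).

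The 6 groups were cells of roxadustat-treated mice (n = 2) and of control mice (n = 2) taken straight from the kidney at day 0, and cells cultured with roxadustat (n = 4) or without it (n = 4) for 7 days, and likewise (n = 4 each) for 21 days. Mice were given 33 mg/kg of roxadustat by injection into the peritoneum for 7 days. All cultures were kept in serum-containing medium at 20% oxygen, and the series' design text places roxadustat in the culture. The labels use 1 protocol text for all libraries and do not say whether cultured cells came from injected mice. Strain, age and genotype are not given in the sources used here. Nothing says that the replicates came from different animals or dishes, and the p-values measure only the spread between these libraries, which may be technical.

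Injured tubule epithelium loses its transport functions and turns on receptors, secreted proteins and developmental factors, and cells that keep this program are said to have failed to repair. Havcr1 (kidney injury molecule) is a phagocytic receptor that proximal tubule cells put on their surface after injury, while Lcn2 (neutrophil gelatinase-associated lipocalin), Spp1 (osteopontin) and Clu (clusterin) encode secreted proteins that injured tubules release. Sox9 and Sox4 encode transcription factors, and Sox9 is switched on in tubule cells that repair themselves. Cd24a and Prom1 encode surface proteins of epithelial progenitors that are also found on scattered tubule cells after injury. Vcam1, an adhesion molecule for leukocytes that endothelial cells and fibroblasts make as well, and Dcdc2a, which encodes a doublecortin-domain protein that binds microtubules, are used as markers of proximal tubule cells in failed repair.

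Total counts were 8.502 to 19.9 mega counts per library. Levels are counts per mega counts of a library (CPM), with library sizes scaled by TMM, and ± is the SE for log2 fold changes. Control libraries of day 21 fell into close pairs, 1 with 2 and 3 with 4: chi-square per degree of freedom was 1.94 to 2.32 within the pairs and 16.1 to 22.0 between them, and results were repeated with each pair summed. The labelled cell type was set against its markers. Summed levels of 12 general epithelial markers were 2705 to 2845 CPM with roxadustat and 3402 to 3489.6 CPM without it at day 0, 496 to 520.5 and 216 to 225 CPM at day 7, and 404 to 409 and 15.2 to 18.9 CPM at day 21. Those of 10 fibroblast markers were 1564 to 2651 and 270.5 to 454 CPM, 7432 to 8481 and 11558 to 12206 CPM, and 2746 to 3964 and 51910.0 to 54899 CPM at the same times. In fresh cells of both arms the epithelial sums were above the fibroblast sums, and in cultured cells of both arms they were below them. The lists hold different genes and the sums are not per length, so they do not rank the cell types.

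Promoters are shown for 4 genes because they differ in what they hold. Dcdc2a has matches to the letters of a HIF response element. Havcr1 has more than 1 annotated start, and the promoter shown has 1 such match, with 1 to AP-1 that begins after the start. Another Havcr1 promoter, chr11:46739973-46740272, has no match. The Prom1 promoter shown has an AP-1 match. Spp1, the most abundant of the 10, has none. Sequences are from RefSeq (GRCm38.p6), run from 250 bases before to 50 bases after an annotated start, and read 5′ to 3′ on the gene's strand, with motif matches in capitals.
Dcdc2a, chr13:25055754-25056053, + strand: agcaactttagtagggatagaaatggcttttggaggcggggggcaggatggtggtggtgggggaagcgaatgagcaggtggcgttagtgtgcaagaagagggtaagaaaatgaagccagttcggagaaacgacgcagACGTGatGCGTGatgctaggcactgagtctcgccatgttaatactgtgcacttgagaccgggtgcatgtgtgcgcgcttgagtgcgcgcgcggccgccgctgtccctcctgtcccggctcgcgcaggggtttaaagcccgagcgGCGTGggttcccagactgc
Havcr1, chr11:46750918-46751217, + strand: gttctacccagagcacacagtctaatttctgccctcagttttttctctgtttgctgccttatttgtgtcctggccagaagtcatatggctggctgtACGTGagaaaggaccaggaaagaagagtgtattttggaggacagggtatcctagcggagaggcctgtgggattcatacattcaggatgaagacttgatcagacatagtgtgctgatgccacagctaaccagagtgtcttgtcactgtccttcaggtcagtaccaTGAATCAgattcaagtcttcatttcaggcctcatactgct
Prom1, chr5:44101687-44101986, - strand: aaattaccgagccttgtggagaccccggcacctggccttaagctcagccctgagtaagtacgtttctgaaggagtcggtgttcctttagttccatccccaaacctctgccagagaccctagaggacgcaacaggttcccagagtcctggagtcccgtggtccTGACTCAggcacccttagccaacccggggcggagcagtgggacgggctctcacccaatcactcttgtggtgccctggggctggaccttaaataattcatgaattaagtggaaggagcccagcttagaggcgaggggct
Spp1, chr5:104434861-104435160, + strand: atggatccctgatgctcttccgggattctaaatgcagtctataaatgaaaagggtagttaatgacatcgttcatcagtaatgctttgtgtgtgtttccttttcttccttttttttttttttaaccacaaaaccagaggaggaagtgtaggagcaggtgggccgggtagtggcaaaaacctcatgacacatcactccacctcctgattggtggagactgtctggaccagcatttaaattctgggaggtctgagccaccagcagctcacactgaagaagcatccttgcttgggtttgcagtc
The motifs searched on both strands were ACGTG and GCGTG (HIF response element cores), TGANTCA (AP-1) and GGGNNTNCC (NF-kB). The 6 genes with an entry had 10 such windows. ACGTG was found in 3 of them, 2 of Havcr1 and 1 of Dcdc2a, against 19.6% of all 32851 windows, and GCGTG in 2, of Dcdc2a and Sox4, against 32.4%. TGANTCA was found in 3 of the 10, 2 of Prom1 and 1 of Havcr1, against 7.81% of all windows, and GGGNNTNCC in 1, of Lcn2, against 16.4%. In Dcdc2a, ACGTG began 113 bases and GCGTG 106 bases before the start, with a further GCGTG 31 bases after it. For the Havcr1 window shown, ACGTG began 154 bases before the start and TGANTCA 10 bases after it. In the window of Prom1 shown, TGANTCA began 88 bases before the start. Vcam1, Sox9, Clu and Cd24a had no entry. A match describes the letters only, and no binding was measured.

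After 21 days of culture, 9 of the 10 genes were higher in roxadustat than in control cells and 1, Vcam1, was lower, each past an adjusted p of 0.05 (edgeR's quasi-likelihood test, Benjamini-Hochberg adjustment over all tested genes, as for every adjusted p here). The same test called 62.9% of all genes at this time, 30% higher and 32.9% lower. The libraries of the arms did not overlap for any of the 10, nor for 56.2% of all genes tested. Of the 10, 8 were called and over 2-fold higher with roxadustat, as were 15.6% of all genes. The median log2 fold change was 4.61 over the 10 genes and 0 over all genes tested. In bulk RNA, fewer cells of a type and less RNA per cell cannot be told apart.

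**Figure D1:**
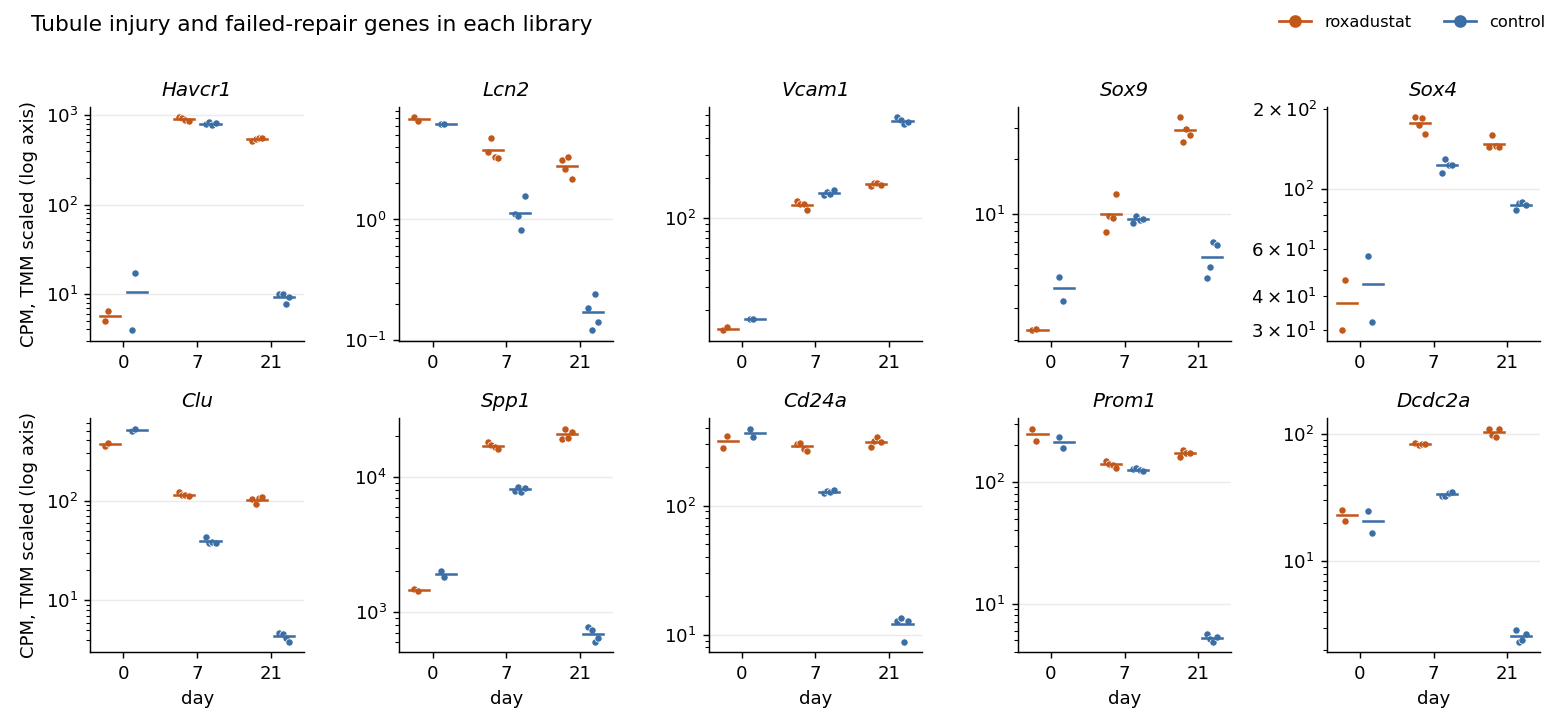
Level of each of the 10 genes in every library, in CPM on a log axis, for roxadustat (orange) and control (blue) cells at day 0, day 7 and day 21. Points are libraries and lines are group means, and at day 21 the control points lie below the roxadustat points for 9 genes and above them for Vcam1.

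Havcr1 (ENSMUSG00000040405, chromosome 11, 46735080 to 46779578, + strand) encodes the phagocytic receptor of injured proximal tubule. Its level at day 21 was 514, 549, 557 and 563 CPM in roxadustat libraries, against 10.01, 10.03, 7.67 and 9.34 CPM in control libraries. The arms were far apart at this time, with a log2 fold change of 5.87 ± 0.24 (SE; 58.5-fold higher, adjusted p = 3.45e-12), the largest of the 10 genes. At day 7 it was 949, 928, 890.3 and 858 CPM in roxadustat and 801, 841, 773 and 814 CPM in control libraries. These groups did not overlap but lay close together, and the difference was not called (log2 fold change 0.17 ± 0.18, 95% interval -0.22 to 0.55, adjusted p = 0.486). It was called in a fit of the day 7 groups alone, with a log2 fold change of 0.16 and an adjusted p of 0.000487. At day 0 it was 4.97 and 6.47 CPM in roxadustat and 3.89 and 17.1 CPM in control libraries, where the control replicates lay on either side of the roxadustat pair (log2 fold change -0.88 ± 0.42, 95% interval -1.79 to 0.02, adjusted p = 0.279). The log2 fold change was -1.60 and called without control replicate 1 (adjusted p = 3.66e-09), 0.54 and not called without control replicate 2 (0.734), and -0.91 and called without a filter on low counts (1.55e-07).

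Both arms gained Havcr1 in the first week of culture, and at day 21 the arms stood apart. Day 7 was 159-fold above day 0 in roxadustat cells (log2 fold change 7.32 ± 0.36, adjusted p = 2.27e-11) and 77.0-fold above it in control cells (6.27 ± 0.33, adjusted p = 5.11e-11). The control value rests on 2 unlike day 0 libraries and had a log2 fold change of 5.58 without the first and 7.71 without the second. From day 7 to day 21 the level fell 1.66-fold in roxadustat cells (log2 fold change -0.73 ± 0.18, adjusted p = 0.00262) and 86.5-fold in control cells (-6.44 ± 0.25, adjusted p = 1.84e-12). Control cells at day 21 overlapped with fresh control cells in Havcr1.

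Spp1 (ENSMUSG00000029304, chromosome 5, 104435118 to 104441050, + strand), which encodes the secreted matrix protein osteopontin, was the most abundant of the 10 genes per length in every group. Its level at day 21 was 19079, 22602, 19387 and 21262 CPM in roxadustat libraries, against 780.0, 740.2, 608 and 650.0 CPM in control libraries. The gap was 29.6-fold (log2 fold change 4.89 ± 0.09, adjusted p = 3.78e-26). This 1 gene took 2.19 to 2.68% of all counts in roxadustat cells at day 21, against 0.0556 to 0.0719% in control cells. After 7 days it was 18066, 17185, 16632 and 15881 CPM in roxadustat and 7884, 8386, 7751 and 8257 CPM in control libraries, 2.10-fold higher with roxadustat (log2 fold change 1.07 ± 0.08, adjusted p = 2.81e-12). At day 0 the order of the arms was the other way, with 1473 and 1429 CPM in roxadustat and 2009.5 and 1814 CPM in control libraries (log2 fold change -0.40 ± 0.11, adjusted p = 0.0207). That call was lost in a fit of the day 0 groups alone (adjusted p = 0.305), with library size alone (0.0651) and when roxadustat replicate 1 (adjusted p = 0.0773), roxadustat replicate 2 (0.11) or control replicate 1 (0.0955) was left out. No neighbouring groups overlapped in Spp1, and its order was roxadustat day 21, roxadustat day 7, control day 7, control day 0, roxadustat day 0 and control day 21. Of its exon bases, 18.8% lie in Gm42793, which is on the same strand and had 21 to 741 counts per library. The libraries were non-stranded, so reads in shared bases cannot be assigned to 1 gene, whichever strand the other gene is on.

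Clu (ENSMUSG00000022037, chromosome 14, 65968483 to 65981547, + strand), which encodes a secreted chaperone, followed a falling course in both arms. It was highest in fresh cells, at 356 and 377 CPM in roxadustat and 495 and 526 CPM in control libraries, and lower with roxadustat (log2 fold change -0.48 ± 0.08, adjusted p = 0.000145, or 0.178 in a fit of the day 0 groups alone). At day 7 it was 121, 114, 113 and 112 CPM in roxadustat and 43.0, 37.4, 38.7 and 37.5 CPM in control libraries, 2.94-fold higher with roxadustat (log2 fold change 1.55 ± 0.06, adjusted p = 4.2e-18). The direction of the difference between arms had turned by this time. At day 21 it was 103, 92.3, 105 and 108 CPM in roxadustat and 4.73, 4.62, 4.23 and 3.86 CPM in control libraries, 23.3-fold higher with roxadustat (log2 fold change 4.54 ± 0.08, adjusted p = 1.54e-26). Between day 0 and day 7 Clu fell 3.19-fold with roxadustat and 13.1-fold without it, and between day 7 and day 21 1.12-fold (adjusted p = 0.0107) and 8.91-fold (adjusted p = 2.03e-22). The roxadustat call between day 7 and day 21 was lost without roxadustat replicate 2 of day 21 (adjusted p = 0.0703) and in 5 further alternatives, with adjusted p-values of up to 0.192.

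Lcn2 (ENSMUSG00000026822, chromosome 2, 32384633 to 32388252, - strand), which encodes an iron-binding lipocalin used as an early injury marker in urine and blood, was low throughout and lowest in control cells at day 21. There it had 2 or 3 counts per library, at 0.184, 0.120, 0.240 and 0.141 CPM, against 33 to 47 counts and 3.13, 2.61, 3.28 and 2.16 CPM in roxadustat libraries. The groups did not overlap, and the level was 15.7-fold higher with roxadustat in the fit (log2 fold change 3.97 ± 0.31, adjusted p = 7.66e-12). After 7 days its level was 3.65, 4.77, 3.33 and 3.26 CPM in roxadustat and 1.10, 1.06, 0.811 and 1.56 CPM in control libraries (3.30-fold higher, log2 fold change 1.72 ± 0.19, adjusted p = 1.71e-08). Fresh cells had the highest levels, 7.02 and 6.54 CPM with roxadustat and 6.23 and 6.19 CPM without it, and did not differ past the threshold (95% interval of the log2 fold change -0.30 to 0.56, adjusted p = 0.824). Roxadustat libraries at day 7 and day 21 overlapped, and the fall between them (log2 fold change -0.46 ± 0.17, adjusted p = 0.0215) was lost with DESeq2 (0.0714), with library size alone (0.0605) and without roxadustat replicate 2 of day 7 (0.121), replicate 2 of day 21 (0.0554) or replicate 4 of day 21 (0.117).

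The transcription factor genes Sox9 and Sox4 rose in the first week of culture in both arms. Sox9 (ENSMUSG00000000567, chromosome 11, 112782224 to 112787760, + strand), a regulator of tubule repair, was 34.2, 25.1, 29.5 and 27.2 CPM in roxadustat libraries at day 21, against 4.42, 5.04, 6.95 and 6.74 CPM in control libraries. Every roxadustat library stood above every control library, by 5.05-fold in the fit (log2 fold change 2.34 ± 0.14, adjusted p = 9.91e-14). Its day 7 level was 7.88, 9.72, 9.43 and 12.8 CPM in roxadustat and 8.93, 9.76, 9.20 and 9.34 CPM in control libraries, which overlapped (95% interval of the log2 fold change -0.18 to 0.38, adjusted p = 0.585). In fresh cells it was 2.25 and 2.28 CPM in roxadustat and 4.48 and 3.29 CPM in control libraries (log2 fold change -0.78 ± 0.29, adjusted p = 0.124, or 0.0176 without a filter on low counts). Between day 7 and day 21 Sox9 rose 2.90-fold with roxadustat (adjusted p = 3.93e-10) and fell 1.63-fold without it (adjusted p = 0.000239). Of the 10 genes, Sox9 alone rose over 2-fold in roxadustat cells in this interval.

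Sox4 (ENSMUSG00000076431, chromosome 13, 28948919 to 28953713, - strand), which encodes a related factor active in progenitor cells, was 144, 159, 146 and 144 CPM in roxadustat and 83.6, 89.2, 89.6 and 87.6 CPM in control libraries at day 21. This gap of 1.69-fold was the smallest of the 9 rises at that time (log2 fold change 0.76 ± 0.13, adjusted p = 4.78e-05). At day 7 it was 185, 174, 185 and 160.4 CPM in roxadustat and 116, 129, 124 and 123 CPM in control libraries (1.43-fold higher, adjusted p = 0.00209). At day 0 the libraries of the arms overlapped, with 29.8 and 45.8 CPM in roxadustat and 56.7 and 32.2 CPM in control libraries (adjusted p = 0.585). Without control replicate 2 the day 0 difference was called, with a log2 fold change of -0.60 and an adjusted p of 0.0101. Of its exon bases 54.6% are shared with Gm26735 on the other strand, which had 0 counts in every library. The libraries were non-stranded, so reads in these bases cannot be assigned to 1 gene, and the 0 counts do not show how they were counted. Whether this lowered the level of Sox4 was not tested.

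The surface protein genes Cd24a and Prom1 had the closest profiles of any pair among the 10. Prom1 (ENSMUSG00000029086, chromosome 5, 43993620 to 44102032, - strand), the CD133 gene, was 160.3, 184, 172 and 172 CPM in roxadustat libraries at day 21, against 5.65, 5.10, 4.87 and 5.34 CPM in control libraries. It was 32.8-fold higher with roxadustat (log2 fold change 5.03 ± 0.09, adjusted p = 5.3e-26). After 7 days it was 148, 140.1, 139 and 130.2 CPM in roxadustat and 127, 130.1, 126 and 123 CPM in control libraries, a difference that was not called (log2 fold change 0.14 ± 0.07, 95% interval 0.00 to 0.28, adjusted p = 0.087). It was called with library size alone as the scale (adjusted p = 0.013) and in a fit of the day 7 groups alone (0.004). At day 0 it was 274 and 216 CPM in roxadustat and 234 and 189.7 CPM in control libraries (adjusted p = 0.215). The day 0 difference was called as higher with roxadustat without control replicate 1 (adjusted p = 0.0229) or roxadustat replicate 2 (0.0308). Prom1 differed 1.24-fold between day 21 and day 7 in roxadustat cells, where it rose (adjusted p = 0.000274), and 24.0-fold in control cells, where it fell (adjusted p = 1.18e-24). Its exons share 5.91% of their bases with the antisense gene Gm16401, which had 0 to 57 counts.

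Cd24a (ENSMUSG00000047139, chromosome 10, 43578284 to 43584265, + strand), which encodes a small glycoprotein anchored to the membrane, was 285, 316, 341 and 309 CPM in roxadustat libraries at day 21, against 12.9, 13.5, 8.86 and 12.9 CPM in control libraries (25.8-fold higher, log2 fold change 4.69 ± 0.10, adjusted p = 1.2e-21). At day 7 it was 302, 307, 275 and 266 CPM in roxadustat and 125, 129.8, 127 and 131 CPM in control libraries (2.24-fold higher, adjusted p = 3.36e-11). In fresh cells its level was 279 and 348 CPM in roxadustat and 394 and 337 CPM in control libraries, which overlapped (adjusted p = 0.308). The roxadustat groups of all 3 times lay next to each other in the order of levels, each overlapping with its neighbour, whereas control cells fell 2.85-fold by day 7 and a further 10.6-fold by day 21 (adjusted p = 7.34e-13 and 9.3e-19). The roxadustat difference between day 7 and day 0 had no stable sign: its log2 fold change was -0.12 ± 0.10 (adjusted p = 0.258), but 0.31 with library size alone (adjusted p = 0.0113) and -0.22 with DESeq2 (0.0471) and with its size factors (0.0481).

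The failed-repair markers Dcdc2a and Vcam1 went opposite ways. Dcdc2a (ENSMUSG00000035910, chromosome 13, 25056004 to 25210706, + strand) was 110.1, 98.4, 93.7 and 109 CPM in roxadustat libraries at day 21, against 2.89, 2.34, 2.40 and 2.67 CPM in control libraries (39.8-fold higher, log2 fold change 5.32 ± 0.11, adjusted p = 1.22e-24). After 7 days its level was 84.7, 81.1, 83.0 and 83.4 CPM in roxadustat and 32.4, 32.5, 34.6 and 34.9 CPM in control libraries (2.47-fold higher, log2 fold change 1.31 ± 0.08, adjusted p = 1.11e-13). Fresh cells had 25.1 and 20.7 CPM with roxadustat and 24.99 and 16.7 CPM without it, which overlapped (adjusted p = 0.631, or 0.022, and higher with roxadustat, without control replicate 1). Dcdc2a rose 3.62-fold with roxadustat and 1.61-fold without it between day 0 and day 7 (adjusted p = 6.58e-15 and 2.07e-06). Between day 7 and day 21 it rose a further 1.24-fold with roxadustat (adjusted p = 0.000883) and fell 13.0-fold without it (adjusted p = 3.1e-20).

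Vcam1 (ENSMUSG00000027962, chromosome 3, 116109949 to 116129688, - strand) was the exception among the 10. It was 173, 185, 182 and 178 CPM in roxadustat libraries at day 21, against 575, 551, 517 and 527 CPM in control libraries. Every control library stood above every roxadustat library (log2 fold change -1.60 ± 0.05, 3.02-fold lower with roxadustat, adjusted p = 1.63e-20). Its day 7 level was 135, 128, 127 and 115 CPM in roxadustat and 149.7, 157, 151 and 162 CPM in control libraries, a smaller difference of the same sign (log2 fold change -0.30 ± 0.05, adjusted p = 2.24e-05). At day 0 it was 14.0 and 14.9 CPM in roxadustat and 17.2 and 17.0 CPM in control libraries (adjusted p = 0.148). Vcam1 was higher at each later time in both arms: 8.72-fold and 9.04-fold at day 7 over day 0, and 1.42-fold and 3.50-fold at day 21 over day 7, in roxadustat and control cells. Of its exon bases 0.688% are shared with the antisense gene Gm43109, which had at most 16 counts.

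**Figure D2:**
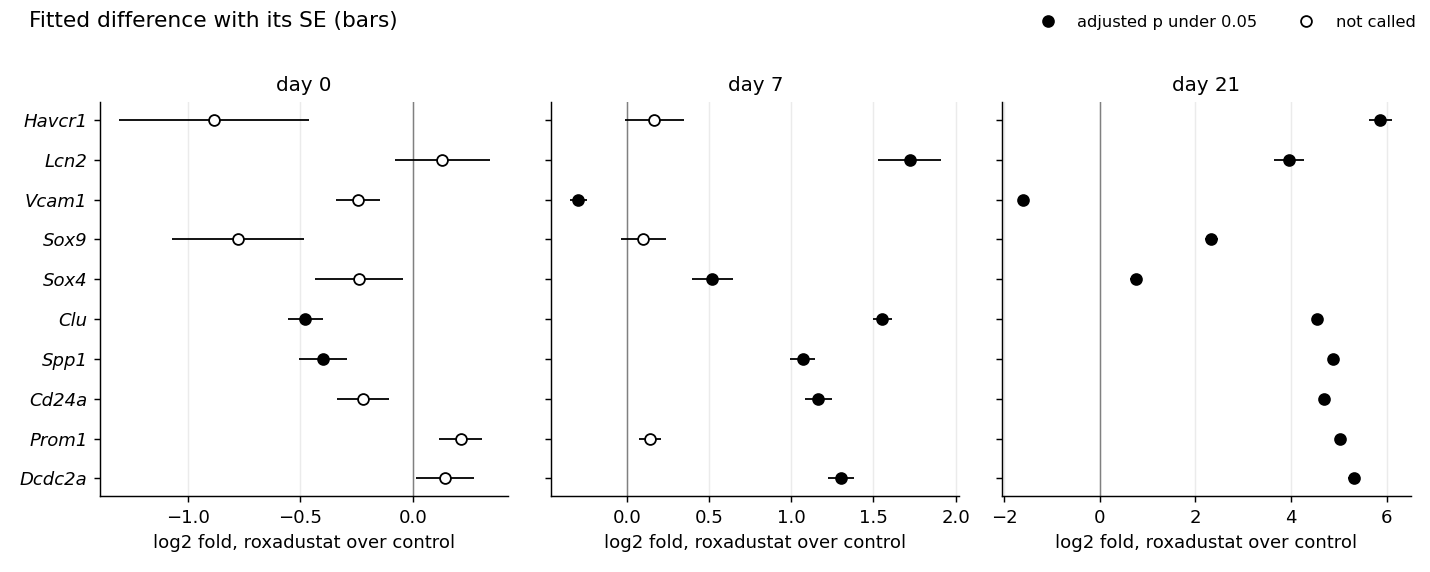
Log2 fold change of roxadustat over control cells for the 10 genes at day 0, day 7 and day 21, with bars of 1 SE from the edgeR fit of 20 libraries. Filled points passed an adjusted p of 0.05. At day 21 all 10 are filled, 9 to the right of 0 and Vcam1 to the left at -1.60.

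In fresh cells 2 of the 10 genes passed the test. Clu and Spp1 were called, both lower with roxadustat, and the other 8 were not, while 6.83% of all genes were called, 2.73% higher and 4.11% lower. The libraries of the arms did not overlap for 5 of the 10, a share near the 42.3% of all genes, and with 2 libraries per arm the 95% interval of the log2 fold change ran from -1.79 to 0.02 for Havcr1 and from -0.44 to -0.04 for Vcam1. At day 7, 6 of the 10 were higher, 1 lower and 3 (Havcr1, Sox9 and Prom1) not called, beside 47.7% of all genes called, 24.1% higher and 23.6% lower, and 9 of the 10 did not overlap between arms, as 47.7% of all genes did not. The median log2 fold change at day 7 was 0.80 over the 10 genes and 0.03 over all genes.

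Most of the 10 genes differed between neighbouring times in both arms, which share no library. Time and the step from fresh to cultured cells cannot be told apart between day 0 and day 7. Between day 0 and day 7, 6 genes rose and 3 fell in roxadustat cells (74.6% of all genes called, 37.1% higher and 37.6% lower), and 6 rose and 4 fell in control cells (76.5% of all genes called, 37% higher and 39.5% lower). Havcr1, Spp1, Vcam1, Sox4, Sox9 and Dcdc2a rose in both arms, and Clu, Lcn2 and Prom1 fell in both. Between day 7 and day 21, 5 rose and 3 fell in roxadustat cells (61.5% of all genes called, 28.6% higher and 32.9% lower), whereas 1 rose, Vcam1, and 9 fell in control cells (68.7% called, 34.5% higher and 34.3% lower). In control cells the 9 falls ran from 1.404-fold for Sox4 to 86.5-fold for Havcr1, with a median log2 fold change over the 10 genes of -3.28 beside 0.00 over all genes. In roxadustat cells the changes of the same interval ran from a 2.90-fold rise of Sox9 to a 1.66-fold fall of Havcr1. Sox4 and Cd24a were not called there (adjusted p = 0.0907 and 0.204), but were in a fit of those groups alone (0.00319 and 0.0068).

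The change in the roxadustat effect was tested itself. At day 0 the drug had been given to mice, and at day 7 and day 21 it was in the culture. Time, culture and the way the drug was given therefore cannot be told apart between day 0 and day 7. Between day 0 and day 7 it changed for 7 of the 10 genes, upward in each (28.9% of all genes called, 15.5% upward), and between day 7 and day 21 up for 8 and down for 1, Vcam1 (44.7% called, 20.9% upward and 23.8% downward). The 2 tests share the day 7 libraries. In the first interval Sox9 and Sox4 were close to the threshold (adjusted p = 0.0435 and 0.0198) and were lost without control replicate 1 of day 0 (0.264 and 0.231) or roxadustat replicate 1 of day 0 (0.141 and 0.144), while Havcr1 was called without that control library (3.22e-10). Clu had the largest shift in the first interval, with a log2 change of 2.03 ± 0.10 (adjusted p = 3.78e-15). Havcr1 had the largest in the second, 5.70 ± 0.30 (adjusted p = 1.98e-10). Prom1 was not called in the first interval (-0.07 ± 0.12, adjusted p = 0.724) and had the next largest shift in the second (4.89 ± 0.12, adjusted p = 9.78e-23).

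**Figure D3:**
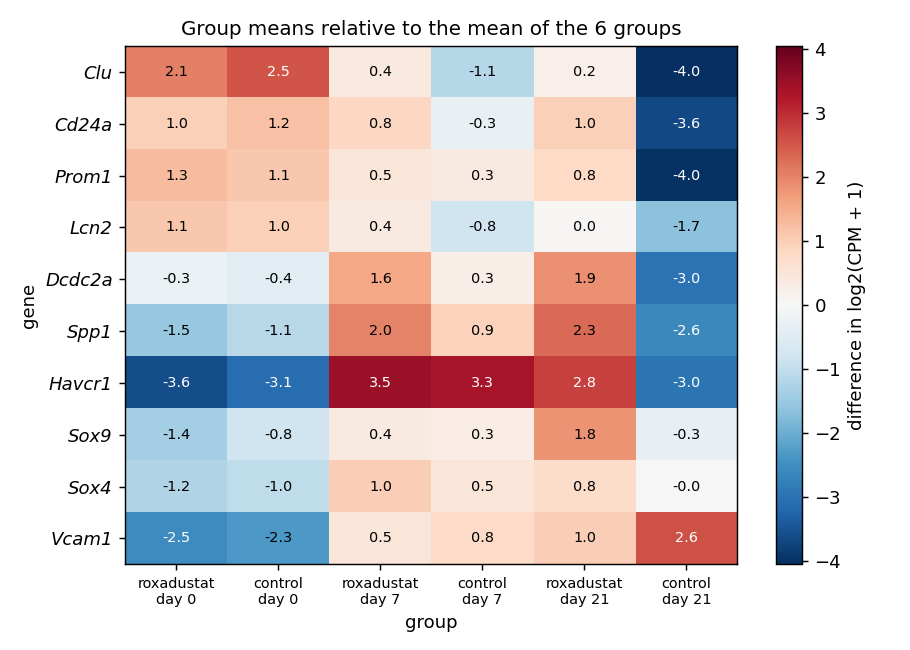
Heat map of the 10 genes over the 6 groups, showing the group mean of log2(CPM+1) minus the gene's own mean over groups. Control cells at day 21 are the lowest group for Lcn2, Clu, Spp1, Cd24a, Prom1 and Dcdc2a and the highest for Vcam1.

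The profiles of the 10 genes over the 6 groups were not alike. As a measure of distance, the root mean square difference between centred group means of log2(CPM+1) was taken, a description over 6 groups with no test. Cd24a and Prom1 were the closest pair, at 0.375, followed by Sox9 and Sox4 at 0.543. Havcr1 and Clu were the farthest apart, at 4.10: Clu was highest and Havcr1 low in fresh cells. Among 12107 other genes, the nearest to Havcr1 were Aldh1a2, which encodes a retinaldehyde dehydrogenase, at 0.830 and Cp, the ceruloplasmin gene, at 0.906. Nearest to Cd24a were Gprc5c (0.220) and the keratin gene Krt18 (0.284), and to Prom1 Lad1 (0.191) and Fermt1 (0.275). For Spp1 they were Spns2 (0.170) and Ano1 (0.286), for Dcdc2a Hkdc1 (0.268) and Map3k21 (0.281), and for Clu Hook1 (0.261) and Ripk4 (0.272). For Lcn2 they were Glul (0.153) and Wdr31 (0.161), for Sox9 Tshz2 (0.155) and Prkca (0.207), for Sox4 Smad3 (0.0980) and Cdk17 (0.157), and for Vcam1 Scarf2 (0.157) and Sntg1 (0.211).

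Levels between genes were compared per length, as mean CPM per kilobase of exon. In roxadustat cells at day 21 Spp1 stood at 12490.0, Havcr1 at 236, Cd24a at 121 and Lcn2 at 1.07. In control cells at day 21 the same genes stood at 421, 4.01, 4.66 and 0.0652, and Vcam1 at 61.2. Of all counts, the 10 genes together took 2.36 to 2.88% in roxadustat libraries at day 21, against 0.114 to 0.136% in control libraries. Spp1 alone took 2.19 to 2.68% of all counts in these roxadustat libraries and 0.0556 to 0.0719% in these control libraries. The share of the 10 genes together was 1.96 to 2.19% in roxadustat and 0.957 to 1.04% in control libraries at day 7.

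Markers of cell types, on lists chosen with earlier results of these data known, also differed between the arms. At day 21, 12 of 12 general epithelial markers were higher in roxadustat than in control cells, beside 30% of all genes. Of 10 fibroblast markers 10 were lower, beside 32.9% of all genes, and all 10 had a count in every library. Of the 12 epithelial markers, 11 or 12 had a count in each roxadustat library. In the 4 control libraries 9, 11, 9 and 10 had one, and Epcam was at 0 in replicates 1, 3 and 4. Of 12 proximal tubule markers 5 were higher, beside the same 30% of all genes. Sums of the 12 were 299 to 309.8 CPM in roxadustat and 10.1 to 15.9 CPM in control libraries. Slc22a6 was at 0 in every library of both arms. Slc22a8 was at 0 in every control library and in 3 of 4 roxadustat libraries, and Hnf4a in every control library. Lrp2, the endocytic receptor megalin of proximal tubule, was 174 ± 3.93 CPM with roxadustat and 4.19 ± 1.17 CPM without it (SD, n = 4 each), and Cdh16, a kidney cadherin, 115 ± 2.94 and 2.82 ± 0.380 CPM. Pdgfra, a growth factor receptor of fibroblasts, was 4.42 ± 0.528 CPM with roxadustat and 153 ± 2.23 CPM without it. At day 7, 11 of 12 general epithelial markers were higher and 6 of 10 fibroblast markers lower with roxadustat, beside 24.1% and 23.6% of all genes. Proximal tubule sums were then 249.8 to 261 CPM in roxadustat and 85.0 to 91.2 CPM in control libraries, with 5 of the 12 markers higher and 0 lower. Lrp2 alone averaged 170 and 63.7 CPM at day 7, so these sums do not stand for the whole list. In fresh cells the directions were the reverse, with 6 of 12 general epithelial markers lower and 6 of 10 fibroblast markers higher, beside 4.11% and 2.73% of all genes, while proximal tubule sums overlapped (26418 to 28437 and 25534 to 26967 CPM).

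**Figure D4:**
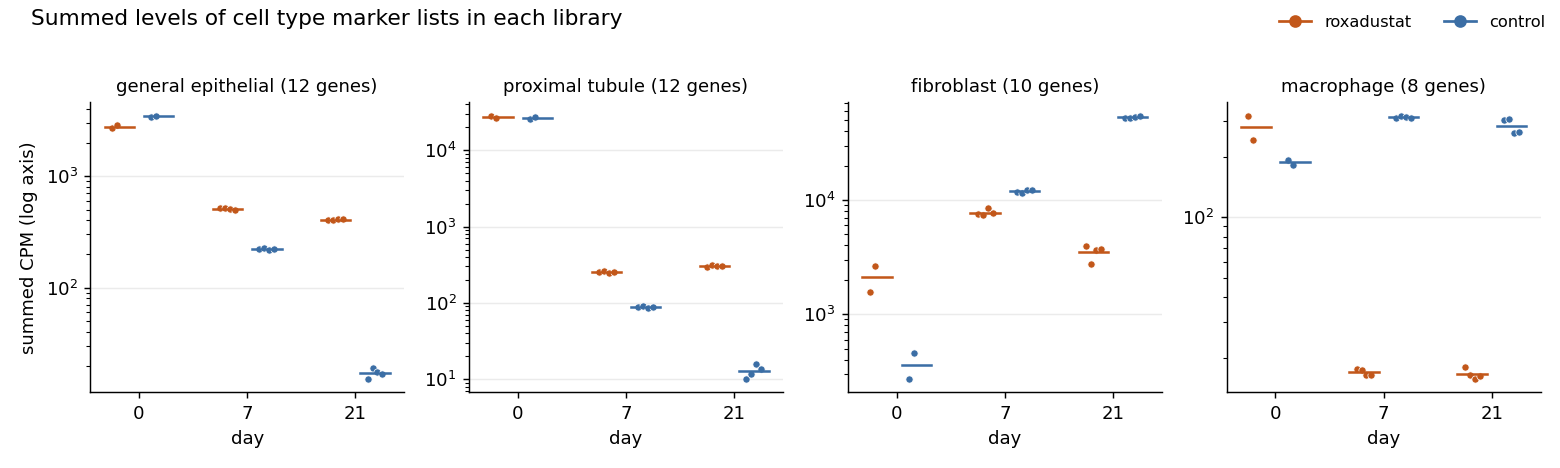
Summed CPM of the marker lists in every library on a log axis, roxadustat (orange) and control (blue) at day 0, day 7 and day 21. At day 21 the epithelial sums of roxadustat libraries lie above those of control libraries and the fibroblast sums below them.

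Other marker lists differed as well. Sums of 8 macrophage markers were 16.4 to 17.6 CPM in roxadustat and 311 to 317 CPM in control libraries at day 7, and 15.7 to 18.1 and 262 to 308 CPM at day 21. Of the 8 genes 7 were lower with roxadustat at each of these times, beside 23.6% and 32.9% of all genes. Cd74 was at 0 in control replicates 1, 2 and 4 and in roxadustat replicate 3 at day 21. Sums of 8 endothelial markers were 75.5 to 78.9 and 273 to 297 CPM, of 8 smooth muscle and pericyte markers 995 to 1080.4 and 2927 to 3326 CPM, and of 6 parietal cell and podocyte markers 291 to 355 and 241 to 332 CPM in roxadustat and control libraries at day 21. The endothelial sum does not stand for the whole list. Of its 8 genes 4 were lower with roxadustat and 0 higher, beside 32.9% and 30% of all genes. Cdh5 or Pecam1, or both, were at 0 in control replicates 1, 2 and 3. Sums of 10 markers of the loop of Henle, distal tubule and collecting duct were 1.70 to 3.16 and 0.843 to 1.44 CPM at day 21. Of these markers 5 were at 0 in every control library of that time. In fresh cells this list summed to 11765 to 13622 CPM with roxadustat and 14808 to 19486 CPM without it. At day 0, 4 of these 10 markers were lower with roxadustat and 0 higher, beside 4.11% and 2.73% of all genes. All 10 markers fell between day 0 and day 7 in both arms, to average sums of 4.79 and 3.94 CPM. Between the arms at day 21, 9 of the 10 genes were higher with roxadustat, as were the epithelial sums. Vcam1 was lower, as were the fibroblast, endothelial, macrophage, and smooth muscle and pericyte sums. Other comparisons were mixed. At day 0 the epithelial sums were lower with roxadustat, as were those of loop, distal tubule and collecting duct. Clu and Spp1 were lower too, and the other 8 genes were not called. In control cells the epithelial sums and 9 of the 10 genes fell between day 7 and day 21. At day 7 the epithelial sums were higher with roxadustat, as were 6 of the 10 genes, and Vcam1 was lower. Havcr1, Sox9 and Prom1 were not called there, though Havcr1 and Prom1 were called higher in a fit of the day 7 groups alone. Between day 0 and day 7 Havcr1, Spp1, Vcam1, Sox4, Sox9 and Dcdc2a rose in both arms, and Clu, Lcn2 and Prom1 fell in both. In roxadustat cells the epithelial sums fell meanwhile to an average of 509 CPM at day 7, against 2775 CPM at day 0. The part that cell makeup has in these results was not tested.

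A wider list of 50 genes of injury and repair, none of them among the 10, was followed in the same fit, and all 50 were tested. This list too was chosen with earlier results of these data known, so it is not independent of them. At day 21, 33 were higher and 12 lower in roxadustat than in control cells and 5 were not called, beside 30% of all genes higher and 32.9% lower, with a median log2 fold change of 1.43 beside 0 over all genes. At day 7, 22 were higher and 15 lower, beside 24.1% and 23.6% of all genes, with a median of 0.08. At day 0, 5 were higher and 9 lower, beside 2.73% and 4.11% of all genes, with a median of -0.17. In control cells 38 of the 50 fell and 7 rose between day 7 and day 21, whereas 17 fell and 17 rose in roxadustat cells. Of all genes 34.3% fell and 34.5% rose in control cells in this interval, and 32.9% fell and 28.6% rose in roxadustat cells. Krt8, a keratin of simple epithelia, was 47.3 ± 3.71 CPM with roxadustat and 0.324 ± 0.0953 CPM without it at day 21 (log2 fold change 7.18 ± 0.19, adjusted p = 3.3e-20), and Cp, the ceruloplasmin gene, 2089 ± 100.2 and 64.1 ± 4.23 CPM (log2 fold change 5.03 ± 0.08, adjusted p = 1.87e-27). Gdf15, a stress-induced growth factor, was 419.9 ± 14.8 CPM with roxadustat and 16.3 ± 1.30 CPM without it (log2 fold change 4.68 ± 0.08, adjusted p = 2.47e-26). At day 7 Gdf15 was 324 ± 14.6 CPM with roxadustat and 59.6 ± 3.56 CPM without it (log2 fold change 2.44 ± 0.07, adjusted p = 1.4e-20). Itgb6, an integrin subunit of injured epithelia, had 709 counts in the 4 roxadustat libraries, against 2 counts in the 4 control libraries at day 21. At day 7 Itgb6 was 7.22 ± 0.764 CPM with roxadustat and 0.892 ± 0.0768 CPM without it, and Gpnmb, a glycoprotein of macrophages and injured cells, was 36.3 ± 1.93 and 219.9 ± 3.28 CPM (log2 fold changes 3.00 ± 0.22 and -2.60 ± 0.07, adjusted p = 1.91e-10 and 7.56e-22). At day 0 Timp1, a protease inhibitor of injured tissue, was 12.1 ± 3.19 CPM with roxadustat and 1.35 ± 1.35 CPM without it (SD, n = 2 each; log2 fold change 3.16 ± 0.38, adjusted p = 6.4e-05), and Pdgfb, a platelet-derived growth factor, 23.7 ± 0.416 and 43.5 ± 0.00707 CPM (log2 fold change -0.87 ± 0.10, adjusted p = 2.17e-06). Of these 50 genes, 4 are also on the general epithelial list.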

How the data were processed

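RNA of 20 libraries (non-stranded mRNA, Trizol) was measured. The deposited values are raw counts for each Ensembl gene, made with bcl2fastq (version not given), STAR 2.5.2a and featureCounts 1.5.0-p1 on mm10, per the submitters' processing notes; the annotation release is not given in the sources used here. Symbols and coordinates are from GENCODE M21 (GRCm38). Groups are the treatment and time labels.

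Counts were fitted with edgeR 4.0.16 in R 4.3.3 as 6 group means over 20 libraries (filterByExpr, TMM, robust quasi-likelihood F test, Benjamini-Hochberg adjustment over 18731 genes, threshold 0.05). The SE of a log2 fold change is its size over the root of F. Steps were tested on simulated data. Depth was 8.502 to 19.9 mega counts, and values cover counting error and the spread between libraries only.

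The 10 genes and all lists were chosen with earlier results of these data known. All 10 are named everywhere; of the 50 other injury genes up to 4 per roxadustat comparison are taken (called, at least 5 CPM in the higher group, no overlap, largest change), and 2 nearest profiles per gene (named symbol, at least 5 CPM in 1 group). Genes sharing exon bases are named with the share.

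Alternatives were DESeq2 1.42.0 and its size factors, library size alone, no filter, a mean of 1 CPM, the replicate number as a block, only the groups compared, each library left out, and, chosen after seeing the data, the control day 21 pairs summed.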

Additional observations from a re-analysis of the deposited data

Results flagged for a closer look

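The effect of roxadustat against control differed between times by the interaction test of edgeR for 7 genes between day 0 and day 7 and for 9 between day 7 and day 21. The first interval also spans the change from dosed mice to drug in the culture, which cannot be told apart from time. The change in the log2 fold change, day 7 minus day 0, was 2.03 ± 0.10 for Clu, 1.59 ± 0.29 for Lcn2, 1.47 ± 0.13 for Spp1, 1.39 ± 0.14 for Cd24a, 1.17 ± 0.15 for Dcdc2a, 0.88 ± 0.32 for Sox9 and 0.76 ± 0.23 for Sox4 (± SE), with adjusted p-values between 3.78e-15 for Clu and 0.0435 for Sox9. Clu and Spp1 were lower with roxadustat at day 0 and higher at day 7. The change, day 21 minus day 7, was 5.70 ± 0.30 for Havcr1, 4.89 ± 0.12 for Prom1, 4.01 ± 0.14 for Dcdc2a, 3.82 ± 0.11 for Spp1, 3.52 ± 0.13 for Cd24a, 2.99 ± 0.10 for Clu, 2.25 ± 0.42 for Lcn2, 2.24 ± 0.20 for Sox9 and -1.30 ± 0.07 for Vcam1. Of the 9, Vcam1 alone moved downward. The Sox9 call of the first interval was lost without any 1 of 8 libraries: control replicate 1 and roxadustat replicates 1 and 2 of day 0, and control replicates 1, 3 and 4 and roxadustat replicates 2 and 4 of day 7 (adjusted p = 0.051 to 0.264), and with DESeq2's size factors (0.0594). That of Sox4 was lost without control replicate 1 (0.231) or roxadustat replicate 1 (0.144) of day 0, and in a fit of only the groups compared (0.101).

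A single library stood far from the other 3 of its group in 2 of 40 sets of 4 libraries, where chance gives about 1 in 20 sets. Sox4 was 159 CPM in roxadustat replicate 2 at day 21, against 144 to 146 CPM in the other 3. Cd24a was 8.86 CPM in control replicate 3 at day 21, against 12.9 to 13.5 CPM in the other 3. Both genes were called at day 21 with any 1 library left out.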

How the results depend on the processing

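The directions and calls of all 10 genes at day 21 held under every alternative run, and at day 7 the count of called genes was 7 with any 1 library left out. Day 0 depended most on the processing: with 2 genes called, the count was 1 with library size alone, 4 without a filter (Havcr1, adjusted p = 1.55e-07, and Sox9, 0.0176, were added) and 0 of the 10 when edgeR used only the day 0 groups (3 of the 10 at an unadjusted p under 0.05; DESeq2 called 2 in the fit of all libraries), where 23 of all genes were called. Leaving out 1 library gave 1 to 4 genes of the 10 and 573 to 1649 of all genes at day 0. Cd24a at day 7 over day 0 with roxadustat changed sign with library size alone, to a log2 fold change of 0.31. The counts for the change in effect between day 0 and day 7 were 5 to 7 and for day 21 against day 7 with roxadustat 6 to 8 with 1 library left out. The cause of these changes was not tested.

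Same-numbered libraries of different groups deviated together in 10 of 42 pairs (correlation over 0.1; range -0.51 to 0.59). The 2 pairs between the day 0 groups hold the same correlation, 0.119, because each group has 2 libraries. A cultured library was closest to its own number in 13 of 48 comparisons. These counts show no pairing over all groups and cannot exclude pairing between some of them. With the replicate number as a block, the genes called were 2, 7 and 10 of the 10 at day 0, day 7 and day 21, and of all genes 1241, 8922 and 11727. Of the calls named here the block ended 1, the change in the effect on Sox9 between day 0 and day 7 (adjusted p = 0.0515).

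Library size alone moved the median of all genes by 0.34 log2 at day 21, and 9372 of 12921 calls were then higher, against 5616 of 11781 with TMM; at day 0 it was 699 of 1223, against 511 of 1280. For the time and interaction tests the share of calls that were higher became 64.6% (from 49.7% with TMM) at day 7 over day 0 with roxadustat, 61.6% (48.3%) without it, 38.3% (50.1%) at day 21 over day 7 without it, and 72.2% (46.8%) for the change in effect between day 7 and day 21, with medians of all genes moved to 0.46, 0.40, -0.19 and 0.26. With the control day 21 pairs summed, 10 genes were called at day 21 against control, among 11124 of all genes. Lcn2, at 2 or 3 counts per control library at day 21, and Sox9 in fresh cells are limited by depth.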

Other observations

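Further genes of the list of 50 are given by value, of which Cxcl1 and C3 were chosen after their values were seen. Ccl2, a monocyte attractant, was 6.55 ± 0.110 CPM with roxadustat and 23.6 ± 0.881 CPM without it at day 7 (SD, n = 4 each; log2 fold change -1.85 ± 0.21, edgeR adjusted p = 7.73e-07). Cxcl1, a neutrophil attractant, was 43.4 ± 2.61 and 14.4 ± 1.67 CPM at the same time (log2 fold change 1.59 ± 0.28, adjusted p = 0.000215), and at day 21 49.9 ± 4.79 and 7.25 ± 0.755 CPM (log2 fold change 2.78 ± 0.31, adjusted p = 1.3e-06). Complement C3 was 10.3 ± 1.20 CPM with roxadustat and 53.4 ± 2.14 CPM without it at day 21 (log2 fold change -2.38 ± 0.21, adjusted p = 6.34e-08). In fresh cells Cd44, a hyaluronan receptor, was 10.6 ± 3.34 CPM with roxadustat and 6.18 ± 1.31 CPM without it (n = 2 each; log2 fold change 0.77 ± 0.20, adjusted p = 0.0225), and Vim, the vimentin gene, 84.5 ± 25.9 and 47.6 ± 4.76 CPM (log2 fold change 0.82 ± 0.12, adjusted p = 6.33e-05).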
